A study of Mus musculus with 11 samples.

Results

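The cytoplasmic ribosomal protein genes encode the proteins of the ribosome that translates nuclear messages, and they were followed here in mouse cerebral cortex in which an atypical protein kinase C gene, Prkci or Prkcz, was floxed. Members were chosen by symbol (Rpl or Rps with a number and at most 1 suffix letter a, x or l, Rplp0 to Rplp2, and Rpsa) and by expression, a member having to reach a value of 1 in 3 or more of 11 libraries. The symbol rule matched 78 of 16228 genes in the table, and all 78 passed the filter on low values, as did 14330 genes in all. Of the members, 46 belong to the large and 32 to the small subunit. RNA came from 4 mm punches of cortex at postnatal day 30 and was sequenced in bulk.

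The 4 control libraries carry a floxed Prkcz allele (written Pkcz in their label) and no Cre is named for them. The label is Pkcz f/+ for Control replicates 1 and 2 and Pkcz f/f for Control replicates 3 and 4. The 4 Prkci cKO libraries are labelled Ng2 Cre+ Prkci f/f, and the 3 Prkcz cKO libraries Ng2-Cre+ Prkcz f/f. Ng2-Cre is driven by regulatory sequence of the gene for the NG2 proteoglycan, which oligodendrocyte precursors and pericytes carry, so most cells of a punch are not its targets. Without a control of the Prkci line or a control with Cre, the effect of the kinase, of Cre and of the line cannot be told apart. Prkci itself was 65.0, 68.3, 67.99 and 66.6 in Prkci cKO against 85.3 to 90.7 in controls (log2 change -0.39, limma adjusted p = 9.84e-04). Prkcz was 279, 262 and 292 in Prkcz cKO against 298 to 347 in controls (log2 change -0.22, adjusted p = 0.0966).

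Each ribosome needs its large and small subunit proteins in equal numbers, and their genes are highly expressed in every tissue. Most of their mRNAs begin with a run of pyrimidines (C and T) at the start site, the 5′ terminal oligopyrimidine tract, through which the mTOR pathway sets their translation. In the brain, neurons and glia place ribosomes in dendrites, axons and, in oligodendrocytes, the processes that form myelin, so that proteins such as myelin basic protein are made on site. Several members also act outside the ribosome, among them the pair RPL5 and RPL11, which bind the p53 regulator MDM2 when ribosome assembly fails.

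The start regions of 7 members that the results below turn on are shown, because such a tract is described for most mRNAs of the family. They are Rpl22, which alone passed a test, Rpl4 and Rpl15, among the steadiest members, Rps6, the ribosomal substrate of S6 kinase, and Rps12, Rps21 and Rps24, whose levels varied most or differed most between the knockouts. Each stretch runs 5′ to 3′ on the gene's strand from 40 bases before the RefSeq start to 20 bases after it (GRCm38.p6, the first entry for a gene with several), with the longest run of C and T in capitals.
Rpl22, chr4:152325686-152325745, + strand: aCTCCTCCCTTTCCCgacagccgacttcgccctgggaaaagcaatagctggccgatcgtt
Rpl4, chr9:64173347-64173406, + strand: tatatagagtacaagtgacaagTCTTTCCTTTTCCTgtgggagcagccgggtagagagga
Rpl15, chr14:18270967-18271026, - strand: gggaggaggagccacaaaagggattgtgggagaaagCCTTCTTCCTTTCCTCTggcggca
Rps6, chr4:86857348-86857407, - strand: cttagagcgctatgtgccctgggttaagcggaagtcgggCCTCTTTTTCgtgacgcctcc
Rps12, chr10:23787190-23787249, - strand: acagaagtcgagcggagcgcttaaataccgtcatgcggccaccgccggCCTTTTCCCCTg
Rps21, chr2:180257339-180257398, + strand: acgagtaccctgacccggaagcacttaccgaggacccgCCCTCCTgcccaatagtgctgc
Rps24, chr14:24490638-24490697, + strand: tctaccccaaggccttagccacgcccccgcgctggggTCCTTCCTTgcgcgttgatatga
The longest run in a window need not be the tract at the start site. It was 14 bases in Rpl22 and Rpl4, 17 in Rpl15, 11 in Rps12, 10 in Rps6, 9 in Rps24 and 7 in Rps21. In Rpl4, Rpl15, Rps6, Rps21 and Rps24 the run spans the annotated start or lies within 20 bases before it, in Rps12 it begins 9 bases after the start, and in Rpl22 it begins 39 bases before the start.

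RefSeq promoter entries were found for 58 members. In the same 60-base window, 30 of 58 members (51.7%) held a run of at least 8 pyrimidines, against 24.0% of 27025 genes. The median longest run was 8 bases in members and 6 in all genes. The pyrimidine motif CTTTCC, on the gene's strand, was in 17.2% of members and 2.85% of all genes, and CTCTTTC, which can overlap it, in 10.3% and 0.788%. The core motif of ETS factors, CCGGAAG, searched on both strands from 250 bases before to 50 after the start, was in 41.4% of members and 9.12% of genes. Over that longer window the SP1 core GGGCGG was in 60.3% of members and 35.9% of genes, and the YY1 core GCCATCTT in 6.90% and 2.88%. TATAAA, on the gene's strand between 40 and 15 bases before the start, was in 0 of 58 members and 2.22% of genes. These matches describe letters in a window, not bound sites.

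Levels of members differed widely per length. Divided by coding length (75 to 1257 bases in members, median 455), the mean control level was 1198 per kb for Rpl41, whose protein is the shortest of the ribosome. Rps29 followed at 563 and Rpl21 at 394 per kb (both chosen after their values were seen), against a median of 215 per kb over members. Rpl3 and Rpl4, long core proteins of the large subunit, had the highest levels before division by length (358 ± 13.7 and 335 ± 15.9, SD, n = 4 controls) and lay at 296 and 267 per kb. The lowest level per kb was 18.1 in Rps27l, a p53-responsive copy of Rps27, and the next was 75.4 in Rpl34. Rps27 itself, of the same coding length as Rps27l (252 bases), was at 272 per kb. Coding length leaves out the untranslated parts of an mRNA, so a very short one can raise the value per kb. Before division by length, Rpl41 was at 89.8 in controls, below Rpl3 and Rpl4. These levels depend on how reads of near-identical copies were assigned: 59 of 78 members have at least 1 annotated pseudogene of their symbol, 24 for Rps12 and 14 for Rps19. Further, 30 members hold a snoRNA gene and 18 overlap another protein-coding gene. The counting strand is unknown here.

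Members rose and fell together from library to library, more than they differed between genotypes. Members took 0.753% to 1.04% of the summed signal of a library. Their mean deviation from each gene's mean over 11 libraries, on the log2 scale, was 0.06, 0.07, -0.17 and -0.09 in controls 1 to 4. It was 0.30, 0.00, -0.08 and 0.04 in Prkci cKO 1 to 4, and -0.04, 0.05 and -0.14 in Prkcz cKO 1 to 3. Prkci cKO replicate 1 is thus the highest library, Control replicate 3 and Prkcz cKO replicate 3 are the lowest, and the groups overlap. The pooled SD within groups of this mean was 0.133. Prkci cKO replicate 1 held the highest value of 76 of 78 members, all but Rpl22 and Rps27l. Control replicate 3 held the lowest value of 36 members and Prkcz cKO replicate 3 of 24.

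**Figure D1:**
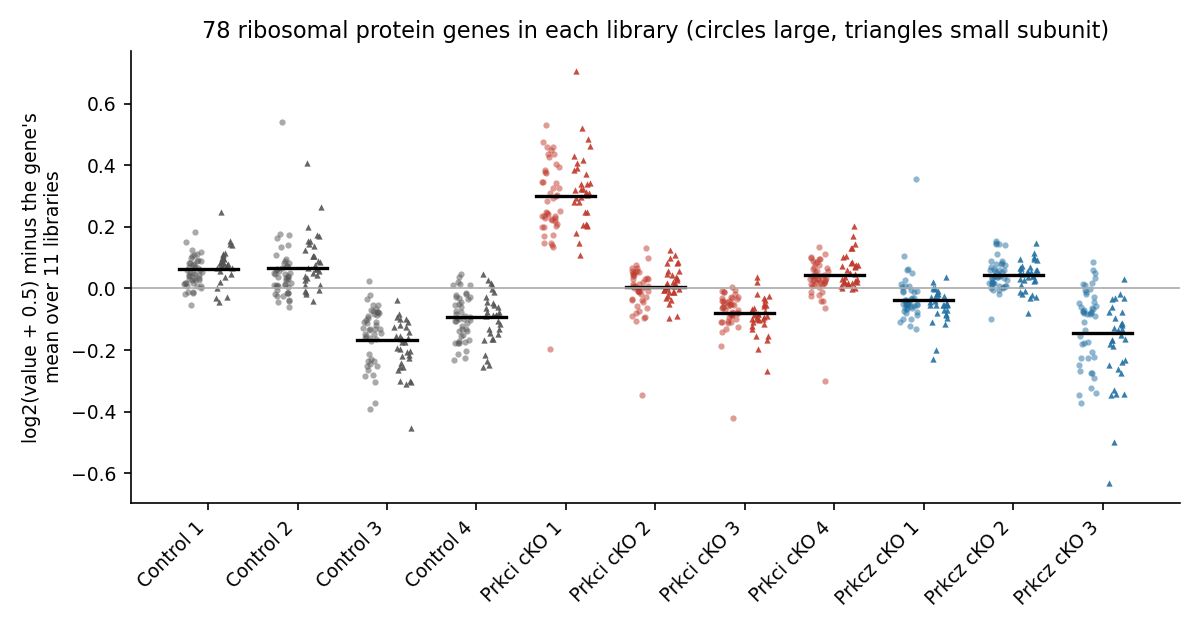
Each point is 1 of 78 ribosomal protein genes in 1 library, as log2(value + 0.5) minus the gene's mean over 11 libraries (circles large, triangles small subunit, bar the mean of all 78). Prkci cKO 1 has the highest mean at 0.30 and Control 3 the lowest at -0.17, and the single large-subunit point far below the others in each Prkci cKO library is Rpl22.

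A first principal component of the members over libraries held 83.7% of their variance, and 77 of 78 members had a loading of the same sign. The exception was Rpl22, which encodes a large-subunit protein that also binds other RNAs. Large and small subunit genes moved alike: the large-minus-small difference of their means lay between -0.04 and 0.07 in the 11 libraries. Rps12 had the largest loading (0.26), then Rps21 (0.20), Rps24 (0.20) and Rpl12 (0.19), while Rpl7, Rpl4 and Rpl6 had positive loadings of at most 0.04. Rps12, Rps24, Rpl12 and Rpl7 are named after their values were seen.

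Rps12, a small-subunit protein of the head region, showed the widest range. It was 50.05, 50.6, 34.01 and 35.6 in controls, 68.9, 42.0, 37.8 and 46.5 in Prkci cKO, and 41.2, 41.7 and 27.0 in Prkcz cKO. The highest library was 2.55 times the lowest, and every group overlapped the others. Rps24 was 142, 143, 103 and 107 in controls, 179, 135, 111 and 139 in Prkci cKO, and 125, 136 and 100 in Prkcz cKO. Both genes were higher in the Pkcz f/+ than in the Pkcz f/f controls. At the other end, Rpl7 ranged from 158 to 185 over all 11 libraries, Rpl4 from 316 to 374 and Rpl15, a core large-subunit protein, from 145 to 179. Their SD within groups was 0.07 on the log2 scale, against 0.34 for Rps12 and a median of 0.13 over members.

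The rise in Prkci cKO replicate 1 over the mean of the other 3 Prkci cKO libraries was 0.71 for Rps12, 0.51 for Rpl12, 0.48 for Rps24 and 0.47 for Rpl34, on the log2 scale. The smallest rises were 0.13 in Rps26 and Rps27l and 0.15 in Rpl15. Rps6 was 175 there against 142, 147 and 153 in the other Prkci cKO libraries, and Rpsa, the laminin-receptor homologue of the small subunit, 280 against 225, 216 and 228. Shorter genes and genes of lower level varied more. Across the 78 members the loading had r = -0.39 and rho = -0.46 with log2 coding length. With log2 mean value it had r = -0.28 and rho = -0.33. These values describe genes that share libraries, and length and level were not separated. Depth, ribosomal RNA and length-related signal also differed between libraries. Effective depth, read from the step size of low values, was 14700000 reads in Prkcz cKO replicate 3 and 20600000 to 28200000 in the others. The ribosomal RNA precursor Rn45s took 1.12% to 4.75% of the signal, 1.65% in Prkci cKO replicate 1. Genes outside the family with coding lengths over 4000 bases, longer than any member, had a median deviation of -0.29 in Prkcz cKO replicate 3. In the other libraries it was -0.06 to 0.09. Other genes nearer the members in length, under 500 bases and from 500 to 1000, were at 0.09 and 0.08 in Prkcz cKO replicate 3. They were at 0.04 and -0.01 in Prkci cKO replicate 1. The part of depth, ribosomal RNA and length in the members' shared movement was not tested.

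The first comparison, Prkci cKO against controls (4 libraries each), asked how cortex differs when Prkci is deleted under Ng2-Cre. Rpl22 fell, and no other member passed the limma test with Benjamini-Hochberg adjustment over all genes. That is 1 of 78 called (0 higher, 1 lower), beside 1.61% of all genes called in either direction, 0.0977% higher and 1.51% lower. At an unadjusted p under 0.05, 0 members were higher and 1 was lower, against 4.28% and 7.79% of all genes. In a bulk sample, fewer cells of a type and less RNA per cell cannot be told apart.

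The members other than Rpl22 lay slightly above the controls. In all, 75 of 78 had a change above 0, against 50.9% of all genes, and the median change was 0.10 on the log2 scale in large and small subunit genes alike, against 0.00 over all genes. Without Prkci cKO replicate 1, 58 of 78 were above 0 and the median was 0.03. Without Control replicate 3 the median was 0.07, and with only the Pkcz f/f controls it was 0.19. This shift of the family is thus smaller than its spread between libraries of one group (0.133), and 1 library sets most of its size.

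Among core proteins of the large subunit, Rpl3 was 368, 367, 338 and 358 in controls and 418, 368, 368 and 372 in Prkci cKO. Its groups did not overlap, as for 3.18% of all genes in this direction, but its change of 0.09 did not pass (SE 0.051, adjusted p = 0.517). Rpl4 was 353, 341, 316 and 332 in controls and 374, 330, 333 and 330 in Prkci cKO, a change of 0.03 (SE 0.051). Rpl6 (0.00), Rpl15 (0.07), Rpl19 (0.14) and Rpl24 (0.07) were likewise not called. Their 95% intervals reached at most 0.29, so that a larger rise in any of the 4 lies outside them.

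The pair RPL5 and RPL11, which carry the smallest ribosomal RNA into the large subunit, had changes of 0.10 (SE 0.085) and 0.11 (SE 0.078). Rpl11 was 93.7, 96.8, 84.5 and 76.3 in controls and 107, 89.2, 87.3 and 95.4 in Prkci cKO, with overlap of the groups. The P stalk, which recruits elongation factors to the ribosome, had changes of 0.02 in Rplp0, 0.13 in Rplp1 and 0.08 in Rplp2. Rpl10, whose protein joins the large subunit late, had a change of 0.07 (SE 0.057). Rpl38, known for the translation of Hox mRNAs, had a change of 0.15 (SE 0.110). The smallest proteins of the large subunit, RPL39 and RPL41, had changes of 0.19 each (SE 0.113 and 0.095), and Rpl34 one of 0.17 (SE 0.132). None of these 10 genes passed.

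In the small subunit, Rps21 had the largest change, 0.23 (SE 0.127, adjusted p = 0.509). It was 58.3, 60.8, 43.6 and 50.7 in controls and 77.5, 57.1, 54.7 and 62.0 in Prkci cKO, so the groups overlapped. Rps10, on the beak of the small subunit, had a change of 0.18 (SE 0.085). Rps6 had 0.07 (SE 0.058), and the proteins of the mRNA entry channel, Rps2 and Rps3, 0.10 and 0.09. Rps19, the gene most often mutated in Diamond-Blackfan anaemia, had 0.12 (SE 0.123) and Rps26, near the mRNA exit, 0.03. Rps27a, which encodes a fusion with ubiquitin, had 0.15 (SE 0.114), and Rps27 0.10 (SE 0.118). Rps4x, the X-linked copy of its protein, had 0.04 (SE 0.055), Rpsa 0.04 (SE 0.081) and Rps28 0.05 (SE 0.089). Rps9 (-0.02) and Rps27l (-0.02) were, with Rpl22, the only members below 0.

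Rpl22 (chromosome 4, 152325742 to 152334071, GRCm38) had the largest change of any member in this comparison and was the only member called. It was 52.9, 73.7, 51.3 and 51.8 in controls, 44.0, 39.6, 37.6 and 40.9 in Prkci cKO, and 64.7, 56.2 and 53.6 in Prkcz cKO. Every Prkci cKO library lay below every other library, with no overlap, as for 5.32% of all genes in the lower direction against controls. Prkci cKO replicate 1, the highest library for nearly all members, was within the low group for this gene. Rpl22 fell by 0.48 on the log2 scale against controls (SE 0.104, limma adjusted p = 0.0317), a change of -28.5%. The 95% interval ran from -0.71 to -0.26.

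The call of Rpl22 depends on the libraries and the variance model, whereas its direction was negative under all 21 alternatives run, 1 of which (controls coded by genotype) was chosen after seeing the data. Without Control replicate 2, the single high control, the change was -0.36 and passed (adjusted p = 0.0291). It missed the threshold without Control replicate 1 (adjusted p = 0.0503) and without Prkci cKO replicate 1, 2, 3 or 4 (0.0523, 0.108, 0.0898 and 0.0706). It also missed it without a variance trend (0.0828) and with only the Pkcz f/f controls (-0.35, adjusted p = 0.0807). The lowest of its adjusted p-values over these alternatives were 0.0134, with the controls coded by genotype, and 0.0155, with array weights.

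**Figure D2:**
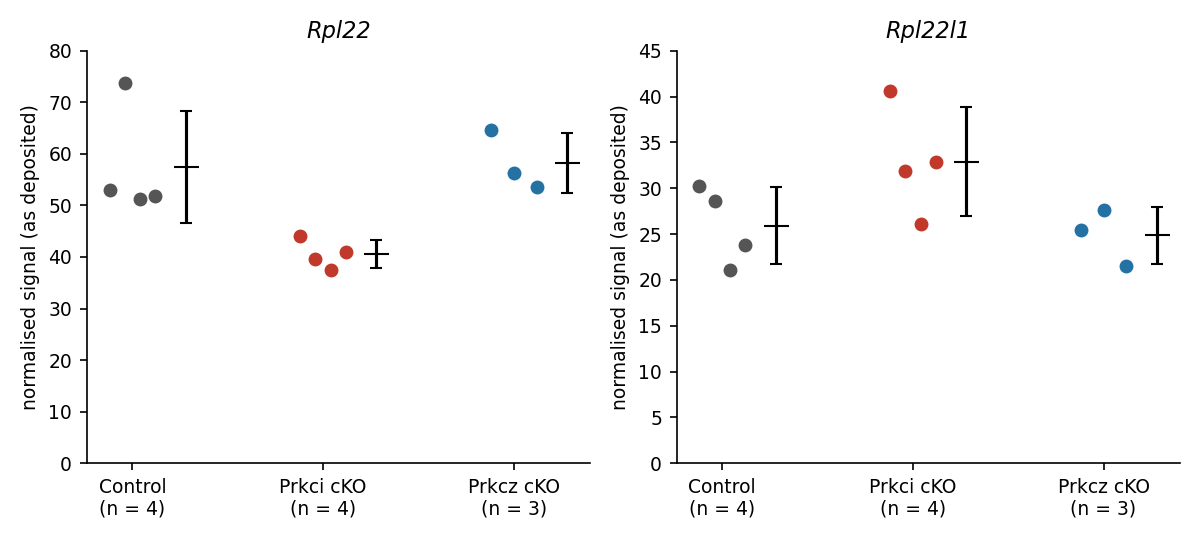
Normalised signal of Rpl22 (left) and its paralog Rpl22l1 (right) in each library, with the mean and SD of each genotype beside the points. The 4 Prkci cKO libraries lie between 37.6 and 44.0 for Rpl22, below all others, while for Rpl22l1 the groups overlap.

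Rps20, Rps6 and Rpl11, which lie on chromosome 4 too, had changes of 0.07 to 0.11 in Prkci cKO, none called (Rps20 was chosen for its position). Rpl22 lies 2.93 Mb from the nearer end of Prkcz on the same chromosome. The floxed Prkcz allele of the controls is absent from the label of the Prkci cKO mice. Strain sequence around that allele was not examined, and its part in the level of Rpl22 was not tested. In Prkcz cKO, which is Prkcz f/f, Rpl22 differed from controls by 0.03 (SE 0.112, adjusted p = 0.914). Among controls it was 52.9 and 73.7 with the label Pkcz f/+, and 51.3 and 51.8 with Pkcz f/f.

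Rpl22l1 encodes a paralog that can take the place of RPL22 in the ribosome, and in mice RPL22 is known to bind its RNA and lower its expression. It lies outside the symbol rule and was taken from the list of further ribosomal protein genes. It was 30.3, 28.6, 21.1 and 23.8 in controls, 40.6, 31.9, 26.1 and 32.9 in Prkci cKO, and 25.5, 27.6 and 21.5 in Prkcz cKO. The groups overlapped, and its change of 0.33 in Prkci cKO did not pass (SE 0.133, adjusted p = 0.321). The ratio of Rpl22l1 to Rpl22, chosen after the values were seen and given without a test, was 0.388 to 0.572 in controls, 0.696 to 0.923 in Prkci cKO and 0.394 to 0.491 in Prkcz cKO. The Prkci cKO libraries were above all others in this ratio. Its denominator, Rpl22, was already lower in each Prkci cKO library than in any other library. Rpl22l1 ends 2.19 Mb before Prkci starts on chromosome 3, so that each of the pair lies within a few megabases of a floxed gene.

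Cell type markers also differed between these groups. The summed level of 12 mature oligodendrocyte markers was 5551 to 8389 in controls, 2907 to 4696 in Prkci cKO and 3948 to 4394 in Prkcz cKO, with 11 and 4 of the 12 called lower (1.51% and 0.621% of all genes). That of 9 oligodendrocyte precursor markers was 643 to 701, 544 to 617 and 499 to 563. Of these 9, 4 were called lower in Prkci cKO and 3 in Prkcz cKO, while 2 and 1 had a change above 0. Both sums were thus lower in each knockout, and the median change of the mature markers was -0.87 in Prkci cKO and -0.63 in Prkcz cKO. The sum of 10 striatal markers was 569 to 931 in controls, 267 to 523 in Prkci cKO and 557 to 1288 in Prkcz cKO, and that of 12 immediate early genes 569 to 1205, 434 to 515 and 319 to 495. The 12 cortical projection neuron markers were all present, with a sum of 2928 to 3254 over libraries, and no marker of these lists was at 0 in any library. The part of these markers in the level of Rpl22 was not tested.

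The second comparison, Prkcz cKO (3 libraries) against controls, found no member past the threshold with limma, where 0.649% of all genes were called (0.0279% higher, 0.621% lower). At an unadjusted p under 0.05, 0 members were higher and 0 lower, against 5.62% and 9.34% of all genes, and no member's groups were free of overlap (5.16% and 6.72% of all genes). Of the members, 37 were above 0 and 41 below, with a median of 0.00, and 48.2% of all genes were above 0. This balance is not a stable direction: 51 were above 0 when column sums without Rn45s were set equal, 67 with array weights and 71 with only the Pkcz f/f controls. Among the controls, leaving out replicate 2 gave 56 above 0 and leaving out replicate 3 gave 14. Among Prkcz cKO, leaving out replicate 2 gave 16 and leaving out replicate 3 gave 61.

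Rps12 and Rps21 had the lowest values, with changes of -0.22 each (SE 0.206 and 0.137). Rps21 was 46.9, 52.9 and 38.0 in Prkcz cKO against 43.6 to 60.8 in controls. The lowest value came from the library of least depth, and the part of depth in it was not tested. Rpsa had -0.15 (SE 0.088, adjusted p = 0.437), Rps28 -0.14 (SE 0.096) and Rps19 -0.11 (SE 0.132). The highest values were 0.09 in Rpl15 (SE 0.056), 0.08 in Rps10 (SE 0.092), and 0.07 in Rps6 (SE 0.063) and Rpl3 (SE 0.055). Rpl15 was 170, 167 and 165 in Prkcz cKO against 157, 168, 145 and 161 in controls, with overlap. Small subunit genes had a median of -0.02 and large subunit genes one of 0.00.

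The third comparison set Prkci cKO against Prkcz cKO. No member was called with limma, where 0.3% of all genes were (0.237% higher, 0.0628% lower). At an unadjusted p under 0.05, 3 members were higher and 1 lower in Prkci cKO, against 9.76% and 6.22% of all genes. Of the members, 73 were above 0 (48.5% of all genes), with a median of 0.11. Vascular markers differed the same way: the sum of 8 endothelial markers was 210 to 238 in controls, 243 to 265 in Prkci cKO and 179 to 181 in Prkcz cKO. All 8 were free of overlap between the knockouts and 3 were called higher in Prkci cKO (7.36% and 0.237% of all genes). The sum of 7 mural markers, which include pericyte genes, was 88.4 to 107, 96.6 to 106 and 74.4 to 78.1, and 2 were called higher in the Prkci knockout. Their part in the shift of the members was not tested. Without Prkci cKO replicate 1, the count of members above 0 and their median were 58 and 0.03, and without Prkcz cKO replicate 3 they were 72 and 0.07. This comparison and the first share the Prkci cKO libraries, so the same library enters both.

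Rps21, whose protein contacts RPSA in the small subunit, was 77.5, 57.1, 54.7 and 62.0 in Prkci cKO and 46.9, 52.9 and 38.0 in Prkcz cKO. The groups did not overlap, as for 7.36% of all genes in this direction, and the limma difference was 0.45 (SE 0.137). It missed the threshold after adjustment (limma adjusted p = 0.176). Controls lay across both groups at 43.6 to 60.8. Rplp1 differed by 0.18 (SE 0.081, adjusted p = 0.302) and Rpsa by 0.19 (SE 0.088, adjusted p = 0.304). Rpl22 was lower in Prkci cKO by every library, as for 6.43% of all genes, with a difference of -0.51 (SE 0.112, adjusted p = 0.0718). It passed with array weights (adjusted p = 0.0267), with only these 2 groups fitted (0.0162) and with the controls coded by genotype (0.0413, an alternative chosen after seeing the data), and the highest adjusted p was 0.173, without Prkci cKO replicate 2. Rpl6 (-0.04), Rpl15 (-0.02), Rps6 (0.00) and Rpl4 (0.00) were the other 4 members below 0, and the 95% interval of Rpl4 ran from -0.12 to 0.12.

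**Figure D3:**
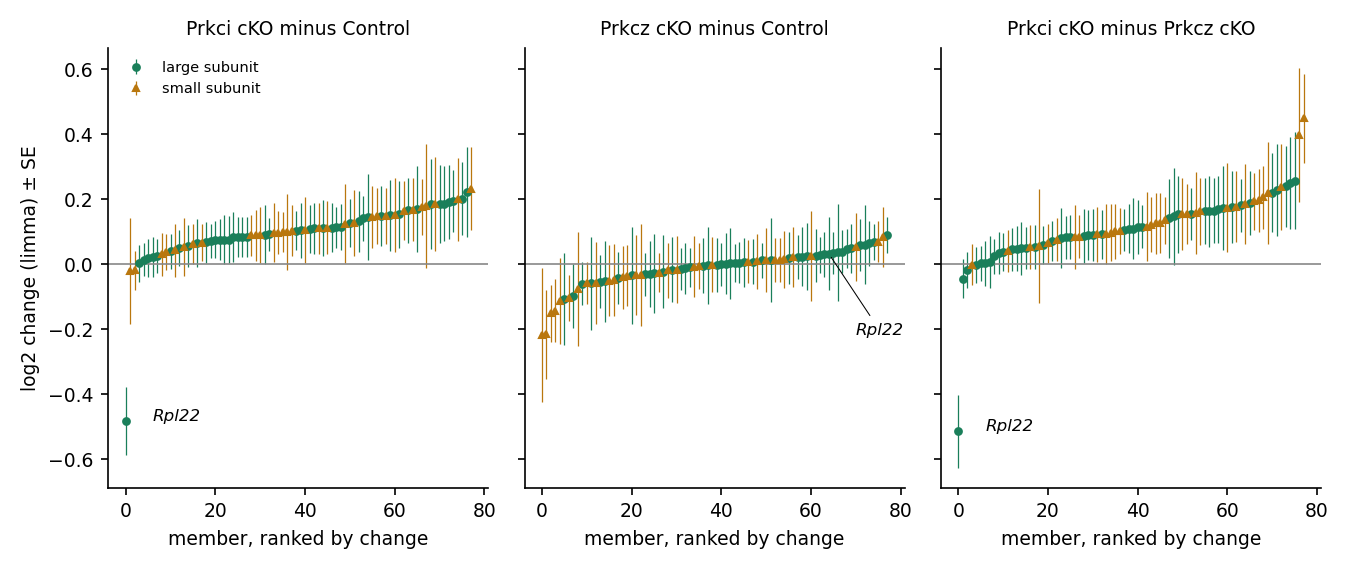
Log2 change (limma coefficient, bar ± SE) of the 78 members in the 3 comparisons, ranked within each (circles large, triangles small subunit). Rpl22 stands alone at -0.48 and -0.51 in the comparisons with Prkci cKO and lies at 0.03 in Prkcz cKO against controls.

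The family also lay at different levels in the 2 pairs of controls that carry different genotype labels. This comparison, added after the data were seen, set controls 1 and 2 (Pkcz f/+) against controls 3 and 4 (Pkcz f/f). All 78 members were higher in Pkcz f/+ (50.1% of all genes were), with a median of 0.17, 0.13 in large and 0.22 in small subunit genes, against 0.00 over all genes. The groups did not overlap for 70 members, against 24% of all genes in this direction, and for 0 in the other (23.2%). At an unadjusted p under 0.05, 19 members were higher and 0 lower, against 6.48% and 6.09% of all genes. None passed after limma adjustment (0.154% of all genes called), and the lowest adjusted p was 0.322, in Rpl11. With 2 animals a side, the allele and other differences between these animals cannot be told apart. The members move together over the same libraries, so these counts of members are not separate observations.

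Genes that work with the ribosomal proteins were examined as lists. Of the ribosomal protein genes outside the symbol rule, 6 were measured and none was called. Fau, which encodes a small subunit protein fused to a ubiquitin-like domain, was 106 in Prkci cKO replicate 1 and at most 86.6 elsewhere, so it too was highest in that library. Its change in Prkci cKO was 0.15 (SE 0.074). Gnb2l1, which encodes the ribosomal scaffold RACK1, had 0.05 and Rpl36al 0.08.

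Of 19 elongation factor and other mRNAs with a pyrimidine tract, none was called against controls, and the medians were 0.02 in Prkci cKO and 0.03 in Prkcz cKO. Vim, an intermediate filament of glia and vessels in that list, was above its Prkcz cKO level in Prkci cKO by 0.44 (SE 0.068, adjusted p = 0.0139). It was the only call in the list, where 0.237% of all genes were called higher. Eef1a1 and Eef2, the main elongation factors, had changes of 0.02 and 0.01 in Prkci cKO. None of 32 initiation factors, 35 ribosome biogenesis genes and 15 genes of RNA polymerase I transcription was called in any comparison. Their median changes in Prkci cKO were 0.00 in each list, and in Prkcz cKO 0.07, 0.04 and 0.04. Of 30 mTOR pathway genes, Ddit4, an inhibitor of mTOR induced by stress, fell by 0.53 in Prkci cKO (SE 0.082, adjusted p = 0.00425), and none other was called. Of 10 genes of ribosome stress and p53, Phlda3, a p53 target that inhibits AKT, fell by 0.39 (SE 0.083, adjusted p = 0.0301), and Mdm2 had -0.06. Beside these single calls in Prkci cKO, 1.51% of all genes were called lower there.

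Mitochondrial gene sets were also examined by library. The 76 mitochondrial ribosomal protein genes had 55 above 0 in Prkci cKO (median 0.03) and 71 in Prkcz cKO (median 0.11), against 50.9% and 48.2% of all genes, with none called (1.61% and 0.649% of all genes). Of 75 nuclear genes of oxidative phosphorylation, 66 and 73 were above 0, with medians of 0.07 and 0.11, and none was called. At an unadjusted p under 0.05, 28 of these 75 were higher in Prkcz cKO and 7 in Prkci cKO, against 5.62% and 4.28% of all genes. Of the 76 mitochondrial ribosomal protein genes, 16 were higher in Prkcz cKO and 2 in Prkci cKO at that level. Of the same 76, 0 and 1 were lower, against 9.34% and 7.79% of all genes. In Prkcz cKO replicate 3, where the cytoplasmic members had a mean deviation of -0.14, the mitochondrial ribosomal protein genes were at 0.15 and the oxidative phosphorylation genes at 0.09. In Prkci cKO replicate 1, where the members were at 0.30, these sets were at 0.04 and 0.13, the latter its highest value in the 11 libraries. The 12 measured snoRNA host genes, many of which carry a pyrimidine tract too, were at 0.28 in that library and at -0.22 to 0.14 in the others.

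**Figure D4:**
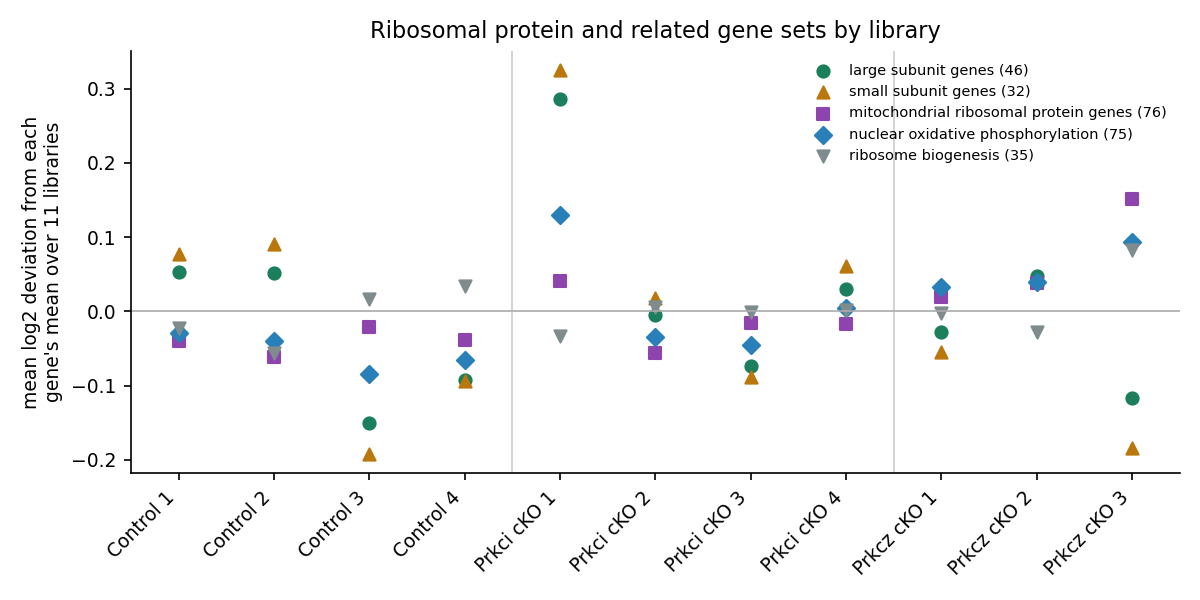
Mean log2 deviation from each gene's mean over 11 libraries for large and small subunit genes, mitochondrial ribosomal protein genes, nuclear oxidative phosphorylation genes and ribosome biogenesis genes, in each library. Both cytoplasmic subunits move together, with their highest point in Prkci cKO 1 (0.29 and 0.33), while in Prkcz cKO 3 they lie at -0.12 and -0.18 and the mitochondrial ribosomal set at 0.15.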

How the data were processed

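RNA of 11 cortex punches (described as biological replicates of each genotype) was sequenced with paired reads of 100 bases. Per the submitters' processing notes, FastQC, Trim Galore, STAR, RSEM and edgeR were used with GRCm38 (versions and annotation not stated there). The authors deposited a normalised signal per gene and not raw counts. Columns sum to 1021767 to 1082562, and the scaling method is not stated.

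Of 16228 genes, the 14330 that reached 1 in 3 or more libraries were kept. Log2(value + 0.5) entered limma 3.58.1 (R 4.3.3; eBayes with a variance trend, 3 groups, 8 residual degrees of freedom), with two-sided p-values adjusted by the Benjamini-Hochberg method over all genes kept and a threshold of 0.05. Changes are on that log2 scale, which understates low genes. The script was tested on simulated data. Positions and coding lengths are from GENCODE M21 (GRCm38), and all 78 members matched; promoters are from RefSeq GRCm38.p6.

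Members, 24 gene lists and alternatives were chosen with earlier results of these data known. Named members are those past the threshold, the 4 smallest p-values per direction and comparison, and fixed structural roles; any other is marked in the text. Some named genes are not reported here. Replicates of a group correlated at r = 0.992 to 0.996.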

Additional observations from a re-analysis of the deposited data

Results flagged for a closer look

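In groups of 4 libraries, a value was singled out when its gap to the nearest other library was over 0.829 of the group's range. Of 66 groups checked (the controls and Prkci cKO, for each of 32 named members and for the family's mean deviation), 7 were singled out (10.6%), where chance gives about 1 in 20. In controls, Rpl22 in replicate 2 was 73.7 against 51.3 to 52.9 in the others. The other 6 were all in Prkci cKO replicate 1, the library with the highest mean of the family. Rpl3 was 418 there against 368 to 372, Rpl4 374 against 330 to 333, and Rpl6 228 against 190 to 195. Rplp0 was 152 against 124 to 128, Rps2 304 against 247 to 251, and Rps27 91.8 against 66.1 to 70.1. These values share 1 library and are not separate observations.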

How the results depend on the processing

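Alternatives covered the pseudocount (0.1 or 1), the filter (none, or 5), 3 scalings, 2 variance models, 2 choices of samples, blocking on the replicate number, and dropping single libraries. TMM scaling was not run, since the deposited values are not counts. The count of members called in Prkci cKO against controls was 0 without a variance trend and 0 with only the Pkcz f/f controls, and ranged from 0 to 1 when 1 library was left out. Between the knockouts it was 1 with array weights, 1 with only the 2 groups fitted and 1 with the controls coded by genotype, an alternative chosen after seeing the data; in each case the gene was Rpl22. In Prkcz cKO against controls it was 0 under every alternative run. Median changes of the family ranged from 0.10 to 0.19 in Prkci cKO over alternatives other than leaving out single libraries, and from 0.03 to 0.15 with 1 library left out. For Prkcz cKO these ranges were -0.02 to 0.09 and -0.04 to 0.04, and between the knockouts 0.07 to 0.13 and 0.03 to 0.16. Values of named members were also counted under the alternatives other than the controls coded by genotype. Of 639, 607 and 575 such values, 7, 0 and 0 lost the call and 0, 0 and 2 gained it, all of them Rpl22. Uncalled values changed sign in 21, 76 and 21 cases, and no called value did.

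Deviations of same-numbered replicates had r = -0.19 to 0.20, with 5 of 10 pairs over 0.1, against 4 of 30 pairs of different numbers. Since not every pair was over 0.1, the numbers were not taken to pair the samples. With the replicate block, 1, 0 and 0 members were called in the 3 comparisons, and the medians were 0.10, -0.02 and 0.13. Whole reads could not be recovered from the deposited values, so depth limits are known only from the step size, and differences in Rps27l, at 3.05 to 5.95, are the least precise.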
